A study of Medicago truncatula and Hordeum vulgare with 90 samples.

Results

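Whole roots of Medicago truncatula seedlings carrying the nsp2-2 mutation were set against whole roots of A17, the ecotype that the study used as wild type. Both were grown for 15 days without phosphate and with nitrate (the regime -P+N). The comparison was defined by its labels alone and took 6 of the 90 libraries of the series, 3 of nsp2 and 3 of A17, out of 36 libraries from seedling roots. For reference to other conditions, nsp2 and A17 roots were used from plants given phosphate and nitrate (+P+N), phosphate alone (+P-N) or neither (-P-N), as were roots of the nsp1-1 mutant in the A17 background and A17 hairy roots expressing an NSP2 whose microRNA site was changed (miRR-NSP2ox) or an empty vector (EV). The mutant was represented by a single allele, so effects of the nsp2-2 mutation and of other differences between its line and A17 cannot be told apart. The number of plants behind a library and whether replicates came from separate cultures are not given in the sources used here. The p-values therefore measure the spread between these libraries, which may be technical.

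NSP2 (NODULATION SIGNALING PATHWAY) is a GRAS-type transcription factor that acts with NSP1 in the signalling of legumes to rhizobia and mycorrhizal fungi. Both are also known to be needed for the expression of genes of strigolactone biosynthesis. Strigolactones are apocarotenoid hormones that phosphate-starved roots make and exude, where they stimulate arbuscular mycorrhizal fungi and parasitic plant seeds. The question behind the comparison was therefore how the root transcriptome of the starved plant differs where NSP2 is mutated. The study also reports a homolog, NSP2L. Mycorrhizal colonization was reduced in its nsp2/nsp2l double mutant but not in either single mutant. Expression that remains in nsp2 alone therefore cannot be read as independent of both genes.

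The nsp2 libraries held 20746562 to 24048078 counts and the A17 libraries 18635759 to 20265791, so each nsp2 library was the deeper. The 10 genes with most counts took 4.16 to 4.51% of the counts in nsp2 and 3.79 to 3.92% in A17, and TMM factors ran from 0.945 to 0.951 in nsp2 and from 0.961 to 0.973 in A17. The part of these differences in the results was not tested. Replicates were further apart than counting alone would make them, at a chi-square per gene of 5.51 to 11 in nsp2 and 3.22 to 6.39 in A17. In a principal component analysis of all 36 seedling libraries the second component, with 13% of the variance, was above 0 in all 12 nsp2 libraries and below 0 in all 24 others. It also followed phosphate, being lower without it in nsp2, nsp1 and A17 alike, and A17 at +P-N lay close to 0 (-3.37 to -0.69). The deposited table gives identifiers without gene names, so the NSP2 transcript itself and markers of root cell types could not be looked up to check the labels.

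At -P+N nsp2 roots differed from A17 roots at many genes, most of them by little. Of 24630 genes tested, 3148 (12.8%) were higher and 3711 (15.1%) were lower in nsp2 than in A17 (edgeR's quasi-likelihood test, Benjamini-Hochberg adjusted p under 0.05). The median difference among the genes called higher was 0.38 on the log2 scale, a fold of 1.3, and that among the genes called lower was -0.47, a fold of 1.38. A change of more than 1.5-fold was reached by 831 of the higher genes and by 1345 of the lower ones. More than 4-fold separated nsp2 and A17 at 98 higher and 196 lower genes. The median over all genes tested was 0. In whole roots, fewer cells of a type and less RNA per cell cannot be told apart. Without A17 replicate 2 the counts were 1841 higher and 2352 lower, and without nsp2 replicate 3 there were 1988 higher genes. A large number of calls was not particular to nsp2 in this regime. Set against the same 3 A17 libraries, nsp1 roots had 8028 called genes, and nsp2 against nsp1 had 2314. How many calls the 2 mutants have in common was not counted.

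**Figure D1:**
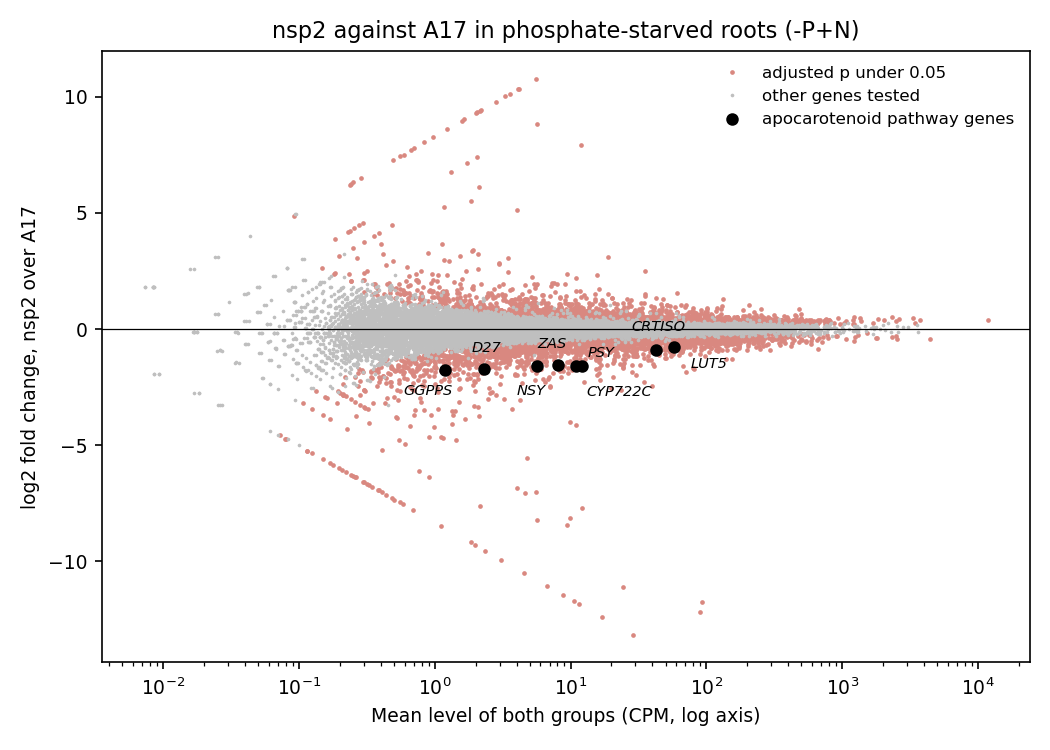
Each point is 1 of the 24630 genes tested at -P+N, with its mean level over nsp2 and A17 libraries in CPM on a log axis and its log2 fold change of nsp2 over A17. Most of the 6859 called genes lie close to 0, the 8 apocarotenoid pathway genes lie between -1.78 and -0.76, and the diagonal rows at the edges are genes without counts in one genotype, whose fitted fold depends on a prior count.

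The genes that can be named belong to the apocarotenoid pathway, and all 8 were lower in nsp2. Their median difference was -1.57 on the log2 scale, against 0 over all genes tested. In all 8 the 3 nsp2 libraries lay below the 3 A17 libraries, an order found in 21.3% of all genes tested. These genes were chosen by the study with these libraries in view, so their shared direction is not independent evidence. The study focused on nutrient-responsive genes that depended on NSP1 or NSP2 and were induced by NSP2 overexpression. The same limit therefore holds for the counts of these 8 genes given below for starvation, nsp1, the other regimes and miRR-NSP2ox. They are taken here along the pathway, from the carotenoid precursors to the strigolactone and zaxinone branches, with levels in CPM, which compare libraries and not genes of different length.

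GGPPS (Medtr5g019460), a geranylgeranyl diphosphate synthase that supplies the precursor of carotenoids, had 0.558, 0.35 and 0.713 CPM in nsp2 roots and 1.88, 1.73 and 1.89 CPM in A17 roots. It had the fewest counts of the 8, with 8 to 14 per nsp2 library, and its log2 fold change was -1.78 ± 0.31 (SE; adjusted p = 0.0022). PSY (Medtr3g083630), a phytoene synthase, which catalyses the first committed step of carotenoid synthesis, had 5.22, 4.42 and 6.97 CPM in nsp2 and 15.8, 15.1 and 17.5 CPM in A17. The highest nsp2 library was thus well below the lowest A17 library, and the log2 fold change was -1.57 ± 0.15 (SE; adjusted p = 6.5e-05). CRTISO (Medtr1g054965), a carotenoid isomerase, had 30.0, 30.0 and 31.0 CPM in nsp2 and 55.7, 53.2 and 57.5 CPM in A17. Its difference was smaller than those of GGPPS and PSY, with a log2 fold change of -0.89 ± 0.06 (SE; adjusted p = 6.9e-06).

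LUT5 (Medtr7g079440), named after an Arabidopsis cytochrome P450 that hydroxylates the rings of carotenes, had 43.9, 39.2 and 45.6 CPM in nsp2 and 69.9, 74.4 and 71.1 CPM in A17. It changed least of the 8, by a log2 fold change of -0.76 ± 0.07 (SE; adjusted p = 4.6e-05). NSY (Medtr2g086700), a neoxanthin synthase of the xanthophyll branch, had 2.48, 2.32 and 3.87 CPM in nsp2 and 7.89, 8.96 and 8.56 CPM in A17. The log2 fold change was -1.57 ± 0.19 (SE; adjusted p = 0.00025). ZAS (Medtr3g110195) is a zaxinone synthase, a carotenoid cleaving enzyme whose product in rice acts on root growth and strigolactone level. It had 4.51, 2.98 and 5.09 CPM in nsp2 and 12.7, 11.9 and 11.6 CPM in A17, a log2 fold change of -1.55 ± 0.17 (SE; adjusted p = 0.00016).

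D27 (Medtr1g471050), the carotene isomerase that opens the strigolactone pathway, had 1.22, 0.875 and 1.17 CPM in nsp2 roots and 3.75, 3.67 and 3.06 CPM in A17 roots. The nsp2 mean was 31.2% of the A17 mean, and the log2 fold change was -1.7 ± 0.23 (SE; adjusted p = 0.00046). CYP722C (Medtr8g076940), a cytochrome P450 of the family that closes a ring of the strigolactone molecule in cowpea, tomato and cotton, had 6.13, 4.68 and 7.43 CPM in nsp2 and 19.4, 17.8 and 17.7 CPM in A17. The nsp2 mean was 33.3% of the A17 mean, with a log2 fold change of -1.61 ± 0.15 (SE; adjusted p = 4.1e-05). At these 8 genes nsp2 roots thus kept between 29.5% (GGPPS) and 59.7% (LUT5) of the A17 level, and 6 of the 8 lay between 29.5 and 34.8%. Other genes of the pathway could not be looked up, so these levels do not describe the pathway as a whole. All 8 differences held with each library left out, with the largest adjusted p at 0.012 for GGPPS over all alternatives.

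**Figure D2:**
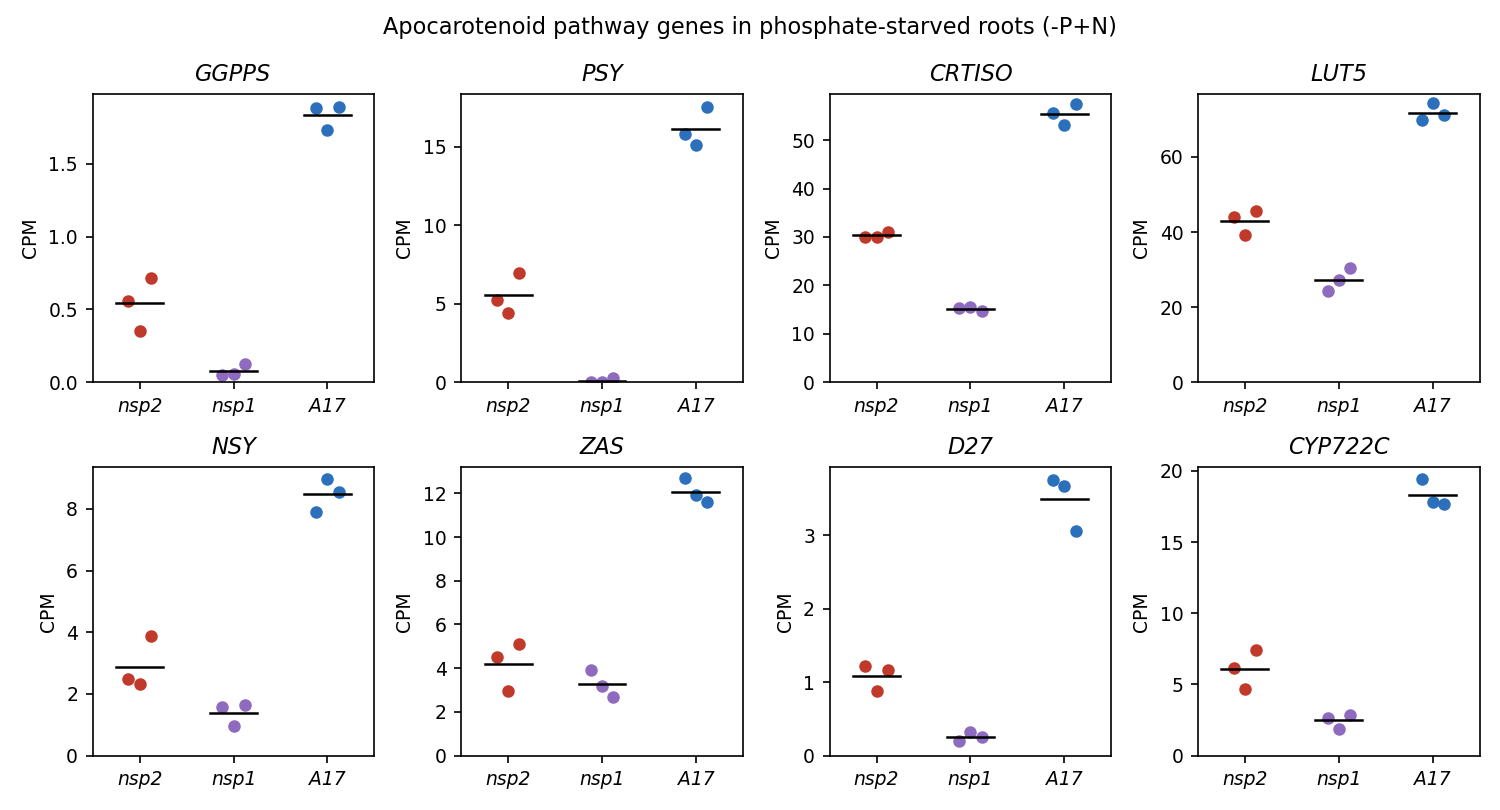
Levels of the 8 apocarotenoid pathway genes at -P+N in CPM, with a point per library and a line at the mean of 3 libraries, for nsp2, nsp1 and A17 roots. In every panel the nsp2 libraries lie below those of A17, and in every panel but ZAS they lie above those of nsp1.

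Most of the 8 genes stood higher in nsp2 than in the nsp1 mutant grown in the same regime. The 3 nsp2 libraries lay above the 3 nsp1 libraries at 7 of the 8 genes, and 6 of the 8 were called higher in nsp2 than in nsp1, against 4.58% of all genes called higher. PSY showed the widest gap, since nsp2 had 101 to 137 counts per library, while nsp1 had 0, 0 and 4 counts (at most 0.255 CPM). D27 had 20 to 24 counts in each nsp2 library and 4 to 6 in each nsp1 library, a difference of 2.03 ± 0.4 (SE) on the log2 scale (adjusted p = 0.01). CYP722C differed by 1.28 ± 0.23 (SE; adjusted p = 0.0062), CRTISO by 0.98 ± 0.08 (SE; adjusted p = 2.4e-05) and LUT5 by 0.64 ± 0.1 (SE; adjusted p = 0.0025). GGPPS, 2.74 higher in nsp2 on the log2 scale (adjusted p = 0.024), was no longer called without nsp2 replicate 3 (adjusted p = 0.08) or without nsp1 replicate 1 (adjusted p = 0.091) or 2 (adjusted p = 0.071). No difference between the mutants was called for NSY (1.03 ± 0.29, SE; adjusted p = 0.051) or for ZAS (0.33 ± 0.24, SE; adjusted p = 0.41).

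Set against the same A17 libraries, which both mutants share, the median difference of the 8 genes was -1.57 in nsp2 and -2.75 in nsp1. All 8 were called lower in nsp1 too, where 17.2% of all genes were called lower. For CRTISO the log2 fold change was -0.89 in nsp2 and -1.87 in nsp1, and for ZAS it was -1.55 in nsp2 and -1.87 in nsp1.

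Phosphate starvation still raised the 8 genes in nsp2. In nsp2 roots all 8 genes were called higher at -P+N than at +P+N, where 17.4% of all genes were called higher, and likewise all 8 in A17 roots, where 14.4% were. In nsp1 roots 3 of the 8 (CYP722C, NSY and ZAS) were called higher, where 26.5% of all genes were. D27 there rose by 2.1 ± 0.85 (SE) on the log2 scale, just short of a call (adjusted p = 0.052), from 3 to 14 counts per 3 libraries. Of the other uncalled genes in nsp1, the estimate was positive for GGPPS (0.9 ± 1.17, SE) and negative for PSY, CRTISO and LUT5. Whether the response differed between nsp1 and nsp2 was not tested. PSY reached 101 to 137 counts per starved nsp2 library and had 1 to 3 counts per nsp2 library at +P+N. D27 reached 20 to 24 counts per starved nsp2 library and had 1 count in all 3 nsp2 libraries at +P+N together. On the log2 scale the estimated rise was smaller in nsp2 than in A17 at 6 of the 8 genes, as for CYP722C (2.58 ± 0.23 in nsp2 and 3.15 ± 0.12 in A17, SE). It was larger in nsp2 for D27 (5.55 ± 0.7 in nsp2 and 3.18 ± 0.31 in A17, SE) and GGPPS (4.53 ± 0.87 in nsp2 and 3.53 ± 0.39 in A17, SE), both with 1 count in the nsp2 libraries at +P+N together.

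Whether nsp2 differed from A17 by more at -P+N than at +P+N was tested as an interaction. It was called at 2 of the 8 genes. CRTISO was 0.85 ± 0.07 (SE) higher under starvation in nsp2 and 1.25 ± 0.07 (SE) in A17 on the log2 scale, an interaction of -0.42 ± 0.1 (SE; adjusted p = 0.011). LUT5 was 0.53 ± 0.08 (SE) higher under starvation in nsp2 and 1.12 ± 0.06 (SE) in A17, an interaction of -0.61 ± 0.09 (SE; adjusted p = 0.00055). At +P+N LUT5 had 31.3, 29.8 and 29.1 CPM in nsp2 and 33.6, 31.9 and 34.3 CPM in A17, a difference that was not called (adjusted p = 0.2). No interaction was called for the other 6 genes, whose estimates lay on both sides of 0. They were negative for ZAS (-0.86 ± 0.31, SE; adjusted p = 0.079), CYP722C (-0.59 ± 0.28, SE; adjusted p = 0.17), PSY (-0.78 ± 0.86, SE; adjusted p = 0.61) and NSY (-0.16 ± 0.88, SE; adjusted p = 0.93). They were positive, with nsp2 nearer to A17 at -P+N, for D27 (2.33 ± 0.92, SE; adjusted p = 0.1) and GGPPS (0.96 ± 0.93, SE; adjusted p = 0.56). At +P+N D27 had 0, 1 and 0 counts in nsp2 and 10, 6 and 4 counts in A17, so that its nsp2 level there, 4.09% of A17 against 31.2% at -P+N, rests on a single count.

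The 8 genes were also lower in nsp2 in the regimes without nitrate. All 8 genes were called lower at +P-N, where 6.31% of all genes were, and all 8 at -P-N, where 2.98% were. With phosphate and nitrate 3 of the 8 (D27, CYP722C and CRTISO) were called lower, where 2.62% of all genes were. These 3 calls were lost with libraries left out, while their direction held. D27 (adjusted p = 0.041) was lost without any 1 of the 6 libraries (adjusted p of 0.052 to 0.17). CYP722C (adjusted p = 0.036) was lost without any but A17 replicate 2 (0.074 to 0.16), and CRTISO (adjusted p = 0.011) without A17 replicate 1 or 3 or nsp2 replicate 1 (0.054 to 0.073). With a library left out, log2 fold changes ran from -5.81 to -3.58 for D27, -1.1 to -0.93 for CYP722C and -0.54 to -0.42 for CRTISO. DESeq2 and the replicate block also left D27 (adjusted p of 0.06 and 0.07) and CYP722C (0.092 and 0.087) uncalled. The nsp2 level of D27 was 9.07% of A17 at +P-N and 13.9% at -P-N, against 31.2% at -P+N. The nsp2 level of NSY was 5.04% of A17 at +P-N and 27.2% at -P-N, against 34.1% at -P+N. GGPPS had no count in any nsp2 library at +P-N, against 11 to 18 counts per A17 library. The interaction test called none of the 8 genes with a difference at -P+N unlike that without phosphate and nitrate (edgeR, 2 at an unadjusted p under 0.05, 0 by DESeq2), and the closest was D27 with 1.16 ± 0.39 (SE; adjusted p = 0.13).

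**Figure D3:**
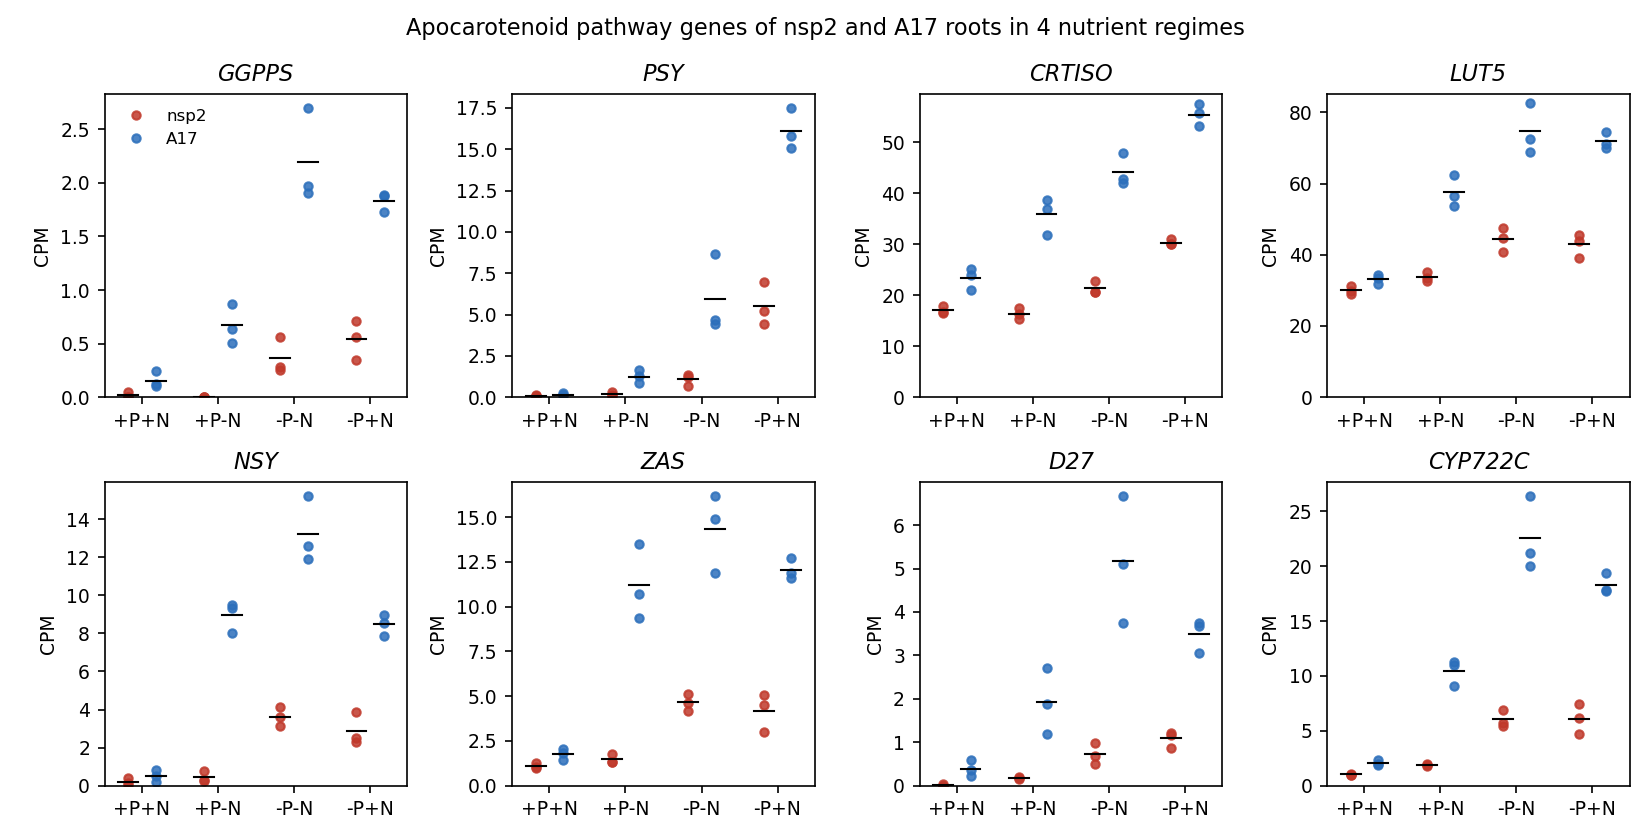
Levels of the 8 genes in CPM in the 4 nutrient regimes, with nsp2 (red) and A17 (blue) side by side, a point per library and a line at the mean of 3. PSY was highest at -P+N in both genotypes, with 4.42 to 6.97 CPM in nsp2 and 15.1 to 17.5 CPM in A17.

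In hairy roots, grown at +P+N and counted in a separate table, expressing the miRR form of NSP2 was accompanied by higher levels of the same 8 genes. This +P+N differed from that of the seedlings in age, growth medium and phosphate concentration, so levels are compared only among hairy roots. All 8 were called higher in miRR-NSP2ox than in EV roots, where 15.9% of 24004 genes tested were called higher. Induction by NSP2 overexpression was part of the study's choice of genes, so this count is not independent evidence. D27 had 14.7, 15.9 and 17.2 CPM in miRR-NSP2ox and 2.25, 2.71 and 2.56 CPM in EV, a log2 fold change of 2.65 ± 0.14 (SE; adjusted p = 6.5e-08). The other log2 fold changes ran from 0.74 (LUT5) to 3.19 (PSY).

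Across the genome, a minority of the genes called between nsp2 and A17 at -P+N were also called in the other regimes. Those regimes were measured in other libraries of both genotypes. Fewer genes were called in each of them, and a gene not called there may still differ. At -P-N 639 genes (2.59%) were higher and 735 (2.98%) lower in nsp2. Of the genes higher at -P+N, 378 were also higher at -P-N, which is 12% of them and 59.2% of the genes higher at -P-N. Of the genes lower at -P+N, 478 were also lower at -P-N, 12.9% of them and 65% of those lower at -P-N. Only 8 genes were called in opposite directions in these regimes. At +P-N 1261 genes (5.12%) were higher and 1553 (6.31%) lower, and 431 and 598 of them were called in the same direction at -P+N, while 189 genes were called in opposite directions.

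At +P+N 469 genes (1.9%) were higher and 645 (2.62%) lower in nsp2. Of these, 229 were also higher and 270 also lower at -P+N. The genes called in opposite directions numbered 170, of which 141 were higher in nsp2 at -P+N and lower in nsp2 at +P+N. The interaction test called 1559 genes (6.33%) at which the log2 difference of nsp2 from A17 was higher at -P+N than at +P+N, and 2241 (9.1%) at which it was lower. Against -P-N the same test called 158 (0.641%) and 463 (1.88%). The sum of the last 2 counts, 621, moved by more than 1.5 times with any of 10 of its 12 libraries left out, to between 150 without A17 -P+N replicate 2 and 1582 without nsp2 -P-N replicate 3. The total at +P+N, 1114, fell to 435 or 456 when replicate 3 or 1 of A17 was left out and to 559 when nsp2 replicate 1 was. The total at -P-N, 1374, was 712 to 892 without any of the 3 A17 libraries or nsp2 replicate 3, and the total at +P-N, 2814, was 1820 without A17 replicate 3 and 1763 without nsp2 replicate 1.

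Genes that respond to phosphate were then taken from libraries outside the comparison. Starvation in the presence of nitrate raised 6538 genes (26.5%) and lowered 6496 (26.4%) in nsp1 roots. Of the genes that starvation lowered in nsp1, 2101 (32.3%) were lower and 544 (8.37%) higher in nsp2 than in A17 at -P+N. Of those that starvation raised in nsp1, 1433 (21.9%) were higher and 563 (8.61%) lower. Over all genes tested the shares were 12.8% higher and 15.1% lower. The median differences were small, at -0.14 on the log2 scale for the lowered genes and 0.09 for the raised genes. At +P+N the medians were 0.07 for the lowered and -0.11 for the raised genes. Without A17 replicate 2 the counts were 1467 and 332 in the list lowered by starvation and 827 and 297 in the list raised by it, and without nsp2 replicate 3 the count of 1433 became 875. Without A17 replicate 1 the count of 563 became 356. Among differences over 1.5-fold the counts were 735 lower and 127 higher in the list lowered by starvation, and 295 higher and 191 lower in the list raised by it.

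In A17 roots without nitrate 3195 genes (13%) were higher and 3311 (13.4%) lower at -P-N than at +P-N. Of the lowered genes 984 (29.7%) were lower and 487 (14.7%) higher in nsp2 at -P+N. Of the raised genes 511 (16%) were higher and 439 (13.7%) lower, close to the shares over all genes. That last balance turned with the processing, to 261 higher and 278 lower without A17 replicate 2 and to 49 higher and 180 lower among changes over 1.5-fold, where the lowered genes had 288 lower and 191 higher. The counts of genes higher in nsp2 were also reduced without nsp2 replicate 3, to 319 among the raised and 310 among the lowered genes, and without A17 replicate 3 there were 339 among the raised genes. Without A17 replicate 2 the lowered genes had 719 lower and 306 higher.

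Among the genes with the strongest responses the larger count lay on the other side. Of the 100 genes most induced by starvation in A17 without nitrate, taken from called genes with a mean of at least 5 CPM in the regime where they were higher, 28 were lower and 4 higher in nsp2 at -P+N, with a median difference of -0.3 on the log2 scale. Of the 100 most repressed, 37 were higher and 9 lower, with a median of 0.37. Left-out libraries gave 23 to 31 lower and 2 to 7 higher genes among the most induced, with 2 higher without A17 replicate 2 and 7 without replicate 1 of either genotype. The count of higher genes there was 8 without a filter and 1 among differences over 1.5-fold. Among the most repressed, the count of higher genes dropped to 16 when A17 replicate 2 was left out and to 19 when nsp2 replicate 3 was. At +P+N, in libraries that did not choose the lists, the medians were -0.24 and -0.08. The A17 libraries at -P-N and +P-N chose the lists, so no medians of nsp2 against those libraries are given.

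Genes that changed in miRR-NSP2ox hairy roots did not, as a whole, change in the opposite direction in nsp2. Of 3628 genes higher in miRR-NSP2ox and tested in seedlings, 1077 (29.7%) were higher and 309 (8.52%) lower in nsp2 at -P+N. Of 3393 genes lower in miRR-NSP2ox, where 14.7% of genes were called lower, 1313 (38.7%) were lower and 214 (6.31%) higher in nsp2. The 8 pathway genes, higher in miRR-NSP2ox and lower in nsp2, were among the 309. At -P-N the medians of the 2 lists were 0.06 and -0.07 and at +P+N they were -0.04 and 0.01, against 0.16 and -0.2 at -P+N. Without A17 replicate 2 the 1077 and 309 became 682 and 191 and the 214 became 106, and without nsp2 replicate 3 the 1077 became 694 and the 214 became 132. Among differences over 1.5-fold, 331 were higher and 158 lower in the list higher in miRR-NSP2ox, and 434 were lower and 39 higher in the list lower in it.

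**Figure D4:**
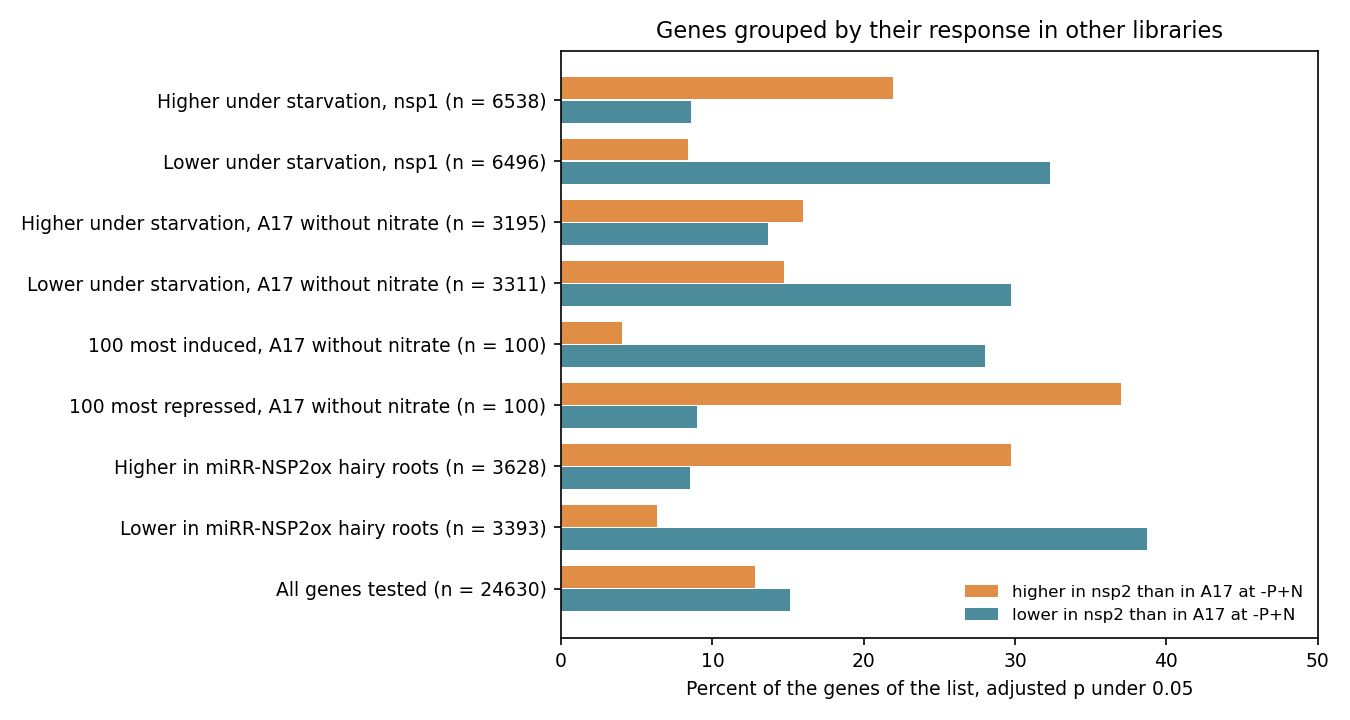
Percent of each list called higher (orange) or lower (blue) in nsp2 than in A17 at -P+N, for lists made from other libraries, with the number of genes in brackets. Among genes lowered by starvation in nsp1 more are called lower than higher (32.3% against 8.37%), as among the 100 most induced genes of A17 without nitrate (28% against 4%), and the rest of each list is not called, while all genes tested stand at 12.8% higher and 15.1% lower.

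Many of the largest differences lay on parts of 2 chromosomes. The identifiers carry the chromosome and a number that follows the order along it for most genes. A stretch of chromosome 6 (identifier numbers 5000 to 40000, 699 genes tested) and a stretch of chromosome 7 (50000 to 70000, 408 genes tested) were set after the values were seen and are given as a description. In the chromosome 6 stretch 307 genes (43.9%) were called, 126 higher and 181 lower, and 84 (12%) of its genes differed by more than 4-fold. In the chromosome 7 stretch 166 (40.7%) were called, 84 higher and 82 lower, and 40 (9.8%) differed by more than 4-fold. Outside both, 6386 of 23523 genes (27.1%) were called and 170 (0.723%) differed by more than 4-fold. None of the 8 pathway genes lay in either stretch, and without the stretches 6386 of the 6859 calls were left. LUT5 (Medtr7g079440) is on chromosome 7, beyond the end of the stretch there. The edges were set from these same values, so a place outside them does not test whether other differences between the lines reach a gene.

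Part of these differences were called in every regime. Of the 473 genes called in the stretches at -P+N, 152 were called in the same direction in every other regime, against 121 of 6386 outside. Of all 24630 genes tested, 323 were called in the same direction in all 3 other regimes, and 273 of them were called in that direction at -P+N too. Of the 323, 109 lay in the chromosome 6 stretch and 55 in the chromosome 7 stretch, and of these 100 and 52 were called in that direction at -P+N. Genes with few or no counts in one genotype also lay there. At -P+N 38 genes had at most 3 counts in every nsp2 library and at least 1 CPM on average in A17, and 27 genes had at most 3 counts in every A17 library and at least 1 CPM on average in nsp2. Of these 65 genes, 43 (66.2%) lay in the stretches, which hold 4.49% of the genes tested.

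**Figure D5:**
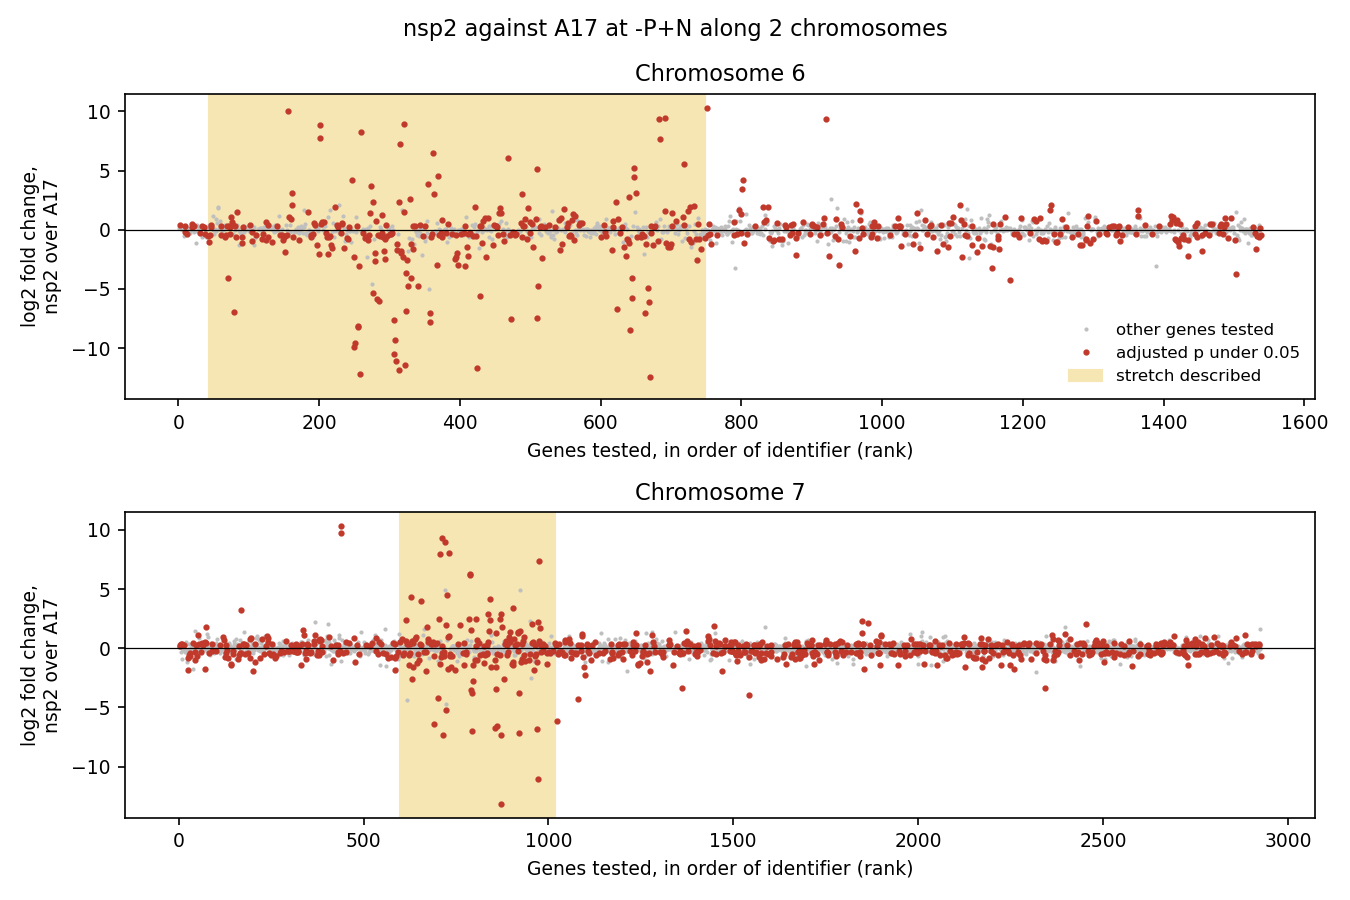
Log2 fold change of nsp2 over A17 at -P+N for the genes tested on chromosome 6 (top) and chromosome 7 (bottom), with called genes in red and the stretches shaded. The order is that of the identifier number for most genes. A few genes in the shaded part of chromosome 6 have numbers outside the stretch and are not counted in it. The 124 genes with a called difference above 4-fold in the stretches go in both directions, while most genes elsewhere on these chromosomes lie near 0.

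The largest differences in each direction, among genes with at least 5 CPM in the higher genotype, fell on identifiers that no table used here names. Medtr7g063730, in the chromosome 7 stretch, had no count in any of the 3 nsp2 libraries and 59.6, 61.2 and 51.2 CPM in the A17 libraries, and was at least 394-fold lower in nsp2 against a floor of 3 counts per library. In nsp1 it had 21.9 to 26.6 CPM. Medtr6g034705, in the chromosome 6 stretch, had no count in nsp2 and 31.8, 35.1 and 35.7 CPM in A17, and was at least 235-fold lower in nsp2. Its level in nsp1, 28.7 to 35.4 CPM, overlapped that of A17. In the other direction, Medtr3g448460 had 11.8, 12 and 9.88 CPM in nsp2 and no count in A17, at least 69.4-fold higher in nsp2, and it had no count in nsp1 in this regime. Medtr7g028553 had 9.68, 9.1 and 6.06 CPM in nsp2 and no count in A17, at least 51.2-fold higher in nsp2, but in nsp1 it had 5.41 to 7.2 CPM. In the 9 libraries of each genotype from the other regimes, the silent genotype of each of these 4 identifiers had at most 4 counts per library. Why these stretches differ was not tested, and whether their transcripts are absent or were not assigned to the reference genes cannot be told apart from counts per gene.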

How the data were processed

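The authors mapped paired-end reads of poly(A)-enriched RNA with STAR to the M. truncatula genome Mt4.0v1, counted them with featureCounts and deposited counts per gene that were not normalized. Versions and the treatment of multiply mapped reads are not given in the sources used here. Columns were assigned to samples by their labels.

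Genes were kept where at least 3 of the 36 seedling libraries reached 0.492 CPM, which is 10 counts in the median library. Each comparison was fitted on its own libraries with edgeR 4.0.16 (R 4.3.3), with TMM scaling and the quasi-likelihood test. The Benjamini-Hochberg adjustment ran over every gene tested, and genes with an adjusted p under 0.05 are called. The SE of a log2 fold change is its size divided by the root of the F statistic. CPM values are TMM-scaled. Hairy roots were filtered (0.494 CPM) and scaled on their own. The code was run on counts simulated from the spread that edgeR had itself fitted. That run checks the code and not how well the model holds for these libraries.

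The genes and lists were chosen with earlier results of these data known. Named are the 8 genes that the study names by identifier, and at most 2 other identifiers in each direction, those with the largest fold change among called genes with groups that do not overlap and at least 5 CPM. The gene table at hand (MtrunA17r5.0-ANR) paired none of the 50894 identifiers with a name. The 20 lists written from gene descriptions, the cell type markers and promoter motifs could therefore not be applied. The hairy-root lists, the lists of 100 genes, starvation in nsp2 and the chromosome stretches were added after the data were seen. The alternatives were other filters, RLE scaling, DESeq2 1.42.0, a replicate block, all groups in one fit, a fold over 1.5 and each library left out. Barley and the other hairy-root libraries were not analysed here.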

Additional observations from a re-analysis of the deposited data

Results flagged for a closer look

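The difference between nsp2 and A17 was itself different between regimes in these cases, each by an interaction test over 12 libraries. Between -P+N and +P+N it differed at 3800 genes, and between -P+N and -P-N at 621 genes (edgeR, adjusted p under 0.05). Among the named genes it differed between -P+N and +P+N at CRTISO, by -0.42 on the log2 scale (adjusted p = 0.011, at most 0.036 over its alternatives), and at LUT5, by -0.61 (adjusted p = 0.00055). In both genes nsp2 lay further below A17 at -P+N. The LUT5 interaction was called under all 19 alternatives, with a largest adjusted p of 0.0035. The CRTISO interaction kept its adjusted p under the threshold in all of them but is below a fold of 1.5.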

How the results depend on the processing

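The 8 named genes were lower in nsp2 at -P+N under all 13 alternatives. All 8 were also called in the same direction under 13 alternatives each at +P-N, at -P-N, in nsp1 against A17, under starvation in A17 and in miRR-NSP2ox, and 3 or 4 under starvation in nsp1. With a fold over 1.5 required, the calls were 2176 for nsp2 against A17 at -P+N, 587 at +P+N, 1043 at +P-N, 647 at -P-N, 1071 for nsp2 against nsp1 and 2473 for nsp1 against A17. They were 1544 and 339 for the interactions with +P+N and -P-N, 6229 for starvation in nsp1, 2282 in A17, 1789 in A17 without nitrate and 3246 in nsp2, and 3372 for miRR-NSP2ox. Without a filter the calls were 1756 at +P+N and 1026 for the interaction with -P-N, which was 1044 with DESeq2. With all groups in one fit they were 2073 at +P+N, 2081 at -P-N, 1578 for the interaction with -P-N and 5148 for nsp2 against nsp1. Replicate numbers did not pair the libraries: deviations of same-numbered nsp2 and A17 libraries correlated at 0.0529, -0.0336 and -0.0435, and not every library correlated best with its own number. The replicate block gave 7132 calls at -P+N and 3728 for nsp2 against nsp1. With a library left out, calls ran from 4193 to 6522 at -P+N, from 435 to 1641 at +P+N, from 1763 to 2634 at +P-N, from 712 to 1647 at -P-N, from 1136 to 2360 for nsp2 against nsp1 and from 150 to 1582 for the interaction with -P-N. The cause of these changes was not tested. Without the chromosome stretches, an alternative added after the data were seen, 6386 calls were left. Counts in the lists from other libraries also moved by more than 1.5 times, most with a fold over 1.5 required, which by its construction leaves fewer calls, and the values stand beside each list. Genes with few counts limit the depth: at +P+N GGPPS, PSY and D27 had at most 3 counts per nsp2 library.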

Other observations

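Genes with few or no counts in one genotype at -P+N were also looked up in nsp1. Of the 38 genes with at most 3 counts in each nsp2 library, 29 had at least 1 CPM on average in nsp1, and of the 27 genes with at most 3 counts in each A17 library, 24 also had at most 3 counts in each nsp1 library. In all 12 nsp2 libraries 27 of the 38 stayed at 3 counts or fewer, and in all 12 A17 libraries 23 of the 27 did. Identifiers on unplaced scaffolds, 558 genes tested, had 27 (4.84%) that differed by more than 4-fold, and chromosomes 1 to 5 and 8 had 0.471 to 0.669%.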
